A study of Mus musculus with 24 samples.

Results

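The interleukin-1 (IL-1) family genes described here are 9 of the 55421 genes in the count table: the agonist cytokines Il1a, Il1b, Il18 and Il33, the antagonists Il1rn and Il18bp, the signalling receptors Il1r1 and Il1rl1, and the decoy receptor Il1r2. They were chosen by family membership together with a measured value, the high Il33 level in AhR-deficient (AhR-KO) cells after lipopolysaccharide (LPS), so the comparison of genotypes after LPS is given as a description without a test. All 9 passed the filter on low counts and were among the 16593 genes tested.

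RNA sequencing was done on bone marrow-derived macrophages (BMDMs) that were grown from bone marrow with 10 ng/ml GM-CSF and 2 ng/ml TGF-β to resemble alveolar macrophages, the resident macrophages of the airspace. The design held 24 libraries in 4 groups of 6, namely unstimulated wildtype (WT), unstimulated AhR-KO, WT after LPS and AhR-KO after LPS, with LPS given at 97 EU/ml on day 6 for 24 h. WT cells came from C57/B6/J mice and AhR-KO cells from the B6.129-Ahr tm1Bra/J strain, adults of both sexes, matched for age and sex. The knockout is in the germline, so by design all cells of the culture, including the progenitors, carried it from the start. The treatment protocol of every group also lists 5 µM of the calcium ionophore A23187 for 10 min, and its use in the RNA libraries could not be settled from the labels. The libraries are named here by their numbers, 17 to 40, which form 3 runs of 8 consecutive libraries with 2 libraries of each group per run, although nothing says that these runs are batches. The study describes the groups as 6 animals each from 1 experiment, while no label ties a library to an animal, so p-values measure the spread between libraries.

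Members of the IL-1 family start or restrain inflammation. IL-1α and IL-1β bind IL1R1, IL-18 binds its own receptor pair and IL-33 binds ST2, the product of Il1rl1, and each complex passes its signal through the adaptor MyD88 and IRAK kinases to NF-kB. The pathway is braked outside the cell by the receptor antagonist IL-1Ra (Il1rn), which occupies IL1R1 without signalling, by IL1R2, which binds IL-1 but lacks the signalling domain, and by IL-18BP, which captures IL-18. IL-33 is an alarmin of barrier tissues, known in the lung for its part in type 2 inflammation, and macrophages are a main source of IL-1β. AhR is a transcription factor that small ligands switch on and that, paired with ARNT, binds DNA at the xenobiotic response element (XRE).

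Total counts per library lay between 45106052 and 76992663. Values are given as CPM, the counts of a gene per 1000000 counts of its library, scaled by TMM (trimmed mean of M values), and a group is described by its lowest, median and highest of 6 libraries. A differentially expressed gene (DEG) reached a 2-fold change or more at a p of 0.05 or less from the edgeR quasi-likelihood test, adjusted by Benjamini-Hochberg over all genes tested. Ahr itself spanned 9.60 to 43.1 CPM in unstimulated WT and 4.74 to 10.96 CPM in unstimulated AhR-KO libraries, with means of 28.3 and 7.42 CPM (log2 fold change −1.93, SE 0.36, edgeR adjusted p = 0.00097). After LPS it was higher in the libraries labelled AhR-KO, at 6.57 to 27.9 CPM in WT and 21.4 to 63.8 CPM in AhR-KO, with means of 16.8 and 43.1 CPM (log2 fold change 1.36, SE 0.35, edgeR adjusted p = 0.011), so after LPS this count went against the label. It sums all exons of the gene, those outside the deleted part included, and is no check of the deletion by itself, so the groups are named here by their labels. Each of 10 macrophage markers had counts in every library, with a summed level between 14800 and 35760 CPM. Lyz2 was the largest part of this sum, with group means between 13691 and 26479 CPM. Mrc1 was as low as 3.94 CPM in a WT library after LPS.

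The members lie on 5 chromosomes of mm10. Il1r2 (chr1:40074079-40125231), Il1r1 (chr1:40225080-40317257) and Il1rl1 (chr1:40429570-40465415) follow each other on the plus strand of chromosome 1, with gaps of 99.85 and 112.3 kb. On chromosome 2, Il1a (chr2:129299610-129309972) and Il1b (chr2:129364570-129371139) are neighbours on the minus strand with 54.6 kb between them, and Il1rn (chr2:24336853-24351494) lies far away on the same chromosome. Il18 is at chr9:50554827-50581840, Il18bp at chr7:102014885-102018690 and Il33 at chr19:29925114-29960718. A gene model on the same strand overlaps Il1r1 (Gm38070) and Il1r2 (Gm37347), and reads shared with it were left out of the counts.

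Promoter windows of 300 bases, from 250 before to 50 after each RefSeq start (GRCm38.p6), were found for all 9 members, 14 windows in all. The sequences of 3 genes that differed between genotypes are shown because AhR acts on DNA through the XRE: the Il1r2 window (chr1:40085843-40086142), both Il33 windows (chr19:29924863-29925162 for the outer start and chr19:29945540-29945839 for the inner start) and the outermost Il1rn window (chr2:24336610-24336909). All are on the plus strand and read from 5′ to 3′, and the capitals mark matches to the XRE core GCGTG or, on the other strand, CACGC. The RefSeq start of Il1r2 lies inside the span of the gene model used for counting.
Il1r2: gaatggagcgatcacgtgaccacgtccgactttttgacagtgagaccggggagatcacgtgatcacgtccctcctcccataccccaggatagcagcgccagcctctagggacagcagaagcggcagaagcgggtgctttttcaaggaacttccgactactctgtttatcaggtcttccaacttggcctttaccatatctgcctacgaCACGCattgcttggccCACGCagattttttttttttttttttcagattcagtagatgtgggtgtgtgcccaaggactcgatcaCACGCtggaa
Il33 outer start: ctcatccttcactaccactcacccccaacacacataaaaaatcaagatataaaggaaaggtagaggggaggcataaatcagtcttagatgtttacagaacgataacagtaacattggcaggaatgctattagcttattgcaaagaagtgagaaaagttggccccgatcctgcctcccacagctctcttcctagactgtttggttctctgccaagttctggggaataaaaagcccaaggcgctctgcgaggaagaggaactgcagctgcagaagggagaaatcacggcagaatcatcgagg
Il33 inner start: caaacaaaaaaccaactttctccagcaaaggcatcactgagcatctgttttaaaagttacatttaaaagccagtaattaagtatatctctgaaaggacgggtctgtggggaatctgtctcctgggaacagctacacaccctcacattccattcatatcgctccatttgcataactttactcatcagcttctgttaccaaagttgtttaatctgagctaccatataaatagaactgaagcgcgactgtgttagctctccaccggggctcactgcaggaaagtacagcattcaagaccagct
Il1rn: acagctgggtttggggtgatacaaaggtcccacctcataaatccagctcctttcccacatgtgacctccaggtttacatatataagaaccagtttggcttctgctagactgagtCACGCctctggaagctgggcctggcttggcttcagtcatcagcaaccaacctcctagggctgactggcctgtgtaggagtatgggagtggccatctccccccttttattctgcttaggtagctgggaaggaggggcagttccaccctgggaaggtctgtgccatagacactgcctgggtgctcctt
The Il1r2 window held 3 matches to the XRE core, all in the letters of the other strand, and they began at positions −43, −27 and 41 from the start, counted without a position 0. The outermost Il1rn window held 1 match, at position −136, while the other 2 Il1rn windows and both Il33 windows held 0. The window of Il1b, which also differed between genotypes without LPS, held 0 as well and is not shown. Over the members, 5 of the 14 windows, from 4 genes (Il1r1, Il1r2, Il1rl1 and Il1rn), held at least 1 match. At least 1 match was found in 32.4% of 32851 RefSeq promoters, and 3 or more in 3.91%. These are matches of letters, not measured binding.

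Without stimulation, Il33 was higher and Il1r2 lower in AhR-KO than in WT cells, and the 2 changes passed both thresholds. With 2 of 9 members called, the share among all genes tested was 4.48%. When the fold change threshold was left out, 4 of 9 members passed, against 6.12% of all genes tested, the further ones being Il1b, which was higher, and Il1rn, which was lower. The median log2 fold change of the 9 members was 0.04, beside −0.01 over all genes tested. The comparison without LPS is not the one that chose the genes, but it shares the unstimulated AhR-KO libraries with the rise of Il33 on LPS in these cells.

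**Figure D1:**
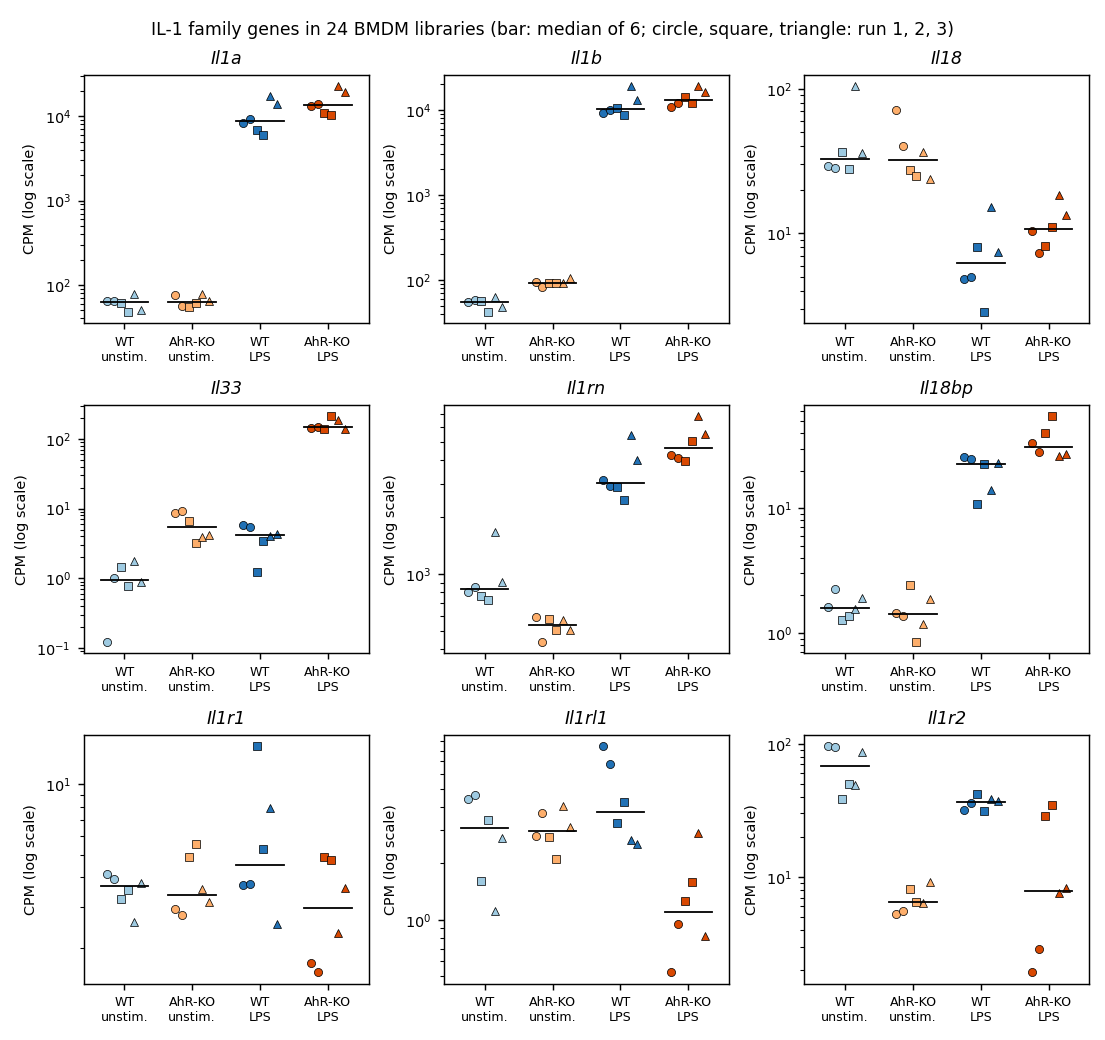
Level of each of the 9 genes in each of the 24 libraries, in CPM on a log scale, by group; points are libraries, the shape gives the run of consecutive library numbers, and bars are group medians. Il33 in AhR-KO cells after LPS lies between 139 and 213 CPM, above every other library, and Il1r2 in unstimulated AhR-KO cells lies below every WT library.

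Il33, the alarmin of barrier tissues, was the lowest-expressed member per length in unstimulated WT cells. Its levels in unstimulated WT libraries were 0.121, 0.952 and 1.77 CPM (lowest, median, highest), from 9 to 118 counts per library. In unstimulated AhR-KO libraries they were 3.21, 5.37 and 9.39 CPM, from 194 to 621 counts. All 6 AhR-KO libraries lay above all 6 WT libraries. The means were 1.004 ± 0.569 and 5.96 ± 2.60 CPM (SD, n = 6 each), a log2 fold change of 2.58 (SE 0.43, edgeR adjusted p = 0.00026). Within the 3 runs the difference on the log2(CPM + 0.5) scale was 3.28, 1.70 and 1.35, so it had the same sign in each.

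After LPS, the Il33 levels that served to choose the genes were 1.24, 4.22 and 5.74 CPM in WT and 139, 146 and 213 CPM in AhR-KO libraries. Every AhR-KO library held at least 7064 Il33 counts, and the highest WT library held 317. The fitted log2 difference between genotypes was 5.33 (SE 0.47), and within the runs it was 4.60, 6.05 and 5.10 on the log2(CPM + 0.5) scale. The LPS response of Il33 was 2.01 (SE 0.42) in WT and 4.76 (SE 0.46) in AhR-KO cells on the log2 scale. In WT cells, 5 of 6 libraries after LPS lay above every unstimulated library and library 29, at 1.24 CPM, did not. The AhR-KO level without LPS and the WT level with LPS overlapped.

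Il33 is also made by stromal cells, so their markers are given beside it. The summed level of 7 fibroblast and stromal markers ranged over 0.0809 to 6.24 CPM in unstimulated WT, 0.159 to 6.62 in unstimulated AhR-KO, 2.20 to 17.4 in WT after LPS and 12.6 to 34 in AhR-KO after LPS. Without LPS, edgeR called 0 of the 7 markers, beside 4.48% of all genes tested, 1 had an unadjusted p under 0.05, and DESeq2 and limma-voom called 0 each. After LPS, 1 of the 7 was called, beside 8.36% of all genes tested, namely Dcn, the matrix proteoglycan decorin, which rose from a mean of 0.822 to 11.9 CPM (log2 fold change 3.84, SE 0.54, edgeR adjusted p = 2.1e-05). Of the 3 collagen genes, Col1a1 and Col3a1 had means of at most 0.516 and 0.190 CPM in any group. Col1a2 had means of 0.778 and 2.22 CPM in unstimulated WT and AhR-KO cells and 1.27 and 1.89 CPM after LPS. The receptor gene Pdgfrb had 0.147 and 0.434 CPM without LPS and 4.66 and 3.20 CPM with it, and the means of Lum and Pdgfra were at most 0.324 and 0.153 CPM in any group. The part of such cells in the Il33 level was not tested, and in bulk RNA fewer cells of a type and less RNA per cell cannot be told apart.

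The pro-inflammatory pair Il1a and Il1b differed from each other without LPS. Il1b, the precursor of secreted IL-1β, had 42.3, 56.0 and 63.0 CPM in WT and 84.0, 92.8 and 107 CPM in AhR-KO libraries. The groups did not overlap, and the log2 fold change was 0.80 (SE 0.18, edgeR adjusted p = 0.0057), under 2-fold. Il1a, the precursor of IL-1α, had 47.8, 62.6 and 78.9 CPM in WT and 54.1, 62.9 and 78.1 CPM in AhR-KO libraries. These ranges overlapped fully, with a log2 fold change of 0.10 (SE 0.24, edgeR adjusted p = 1). The ratio of Il1b to Il1a per kb of merged exons was therefore 0.827 to 0.987 in WT and 1.24 to 1.75 in AhR-KO libraries without LPS, with no overlap. After LPS the ratios were 0.977 to 1.59 and 0.847 to 1.34.

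Il18, the precursor of IL-18, showed no called difference between genotypes without LPS. It had 27.8, 32.6 and 105 CPM in WT and 23.8, 31.96 and 71.6 CPM in AhR-KO libraries. The highest library of each group stood alone, library 33 in WT and library 19 in AhR-KO. The log2 fold change was −0.23 (SE 0.39, edgeR adjusted p = 1), and its sign turned without library 33 (0.25, edgeR adjusted p = 0.94). Libraries 33 and 19 also had the lowest slopes of log2 CPM on log2 gene length of all 24, 0.114 and 0.0952, where the other 22 lay between 0.181 and 0.585.

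Among the antagonists, Il1rn was lower in unstimulated AhR-KO cells but by under 2-fold, so neither it nor Il18bp was a DEG. Neutrophil markers, given below, were lower too, and their part in the Il1rn level was not tested. Il1rn had 730, 828.6 and 1659 CPM in WT and 436, 538 and 591 CPM in AhR-KO libraries. No AhR-KO library reached the lowest WT library. The log2 fold change was −0.85 (SE 0.21, edgeR adjusted p = 0.013). Library 33 held the highest WT value, and without it the log2 fold change was −0.61 (edgeR adjusted p = 0.044), and without both library 33 and library 19 it was −0.65 (edgeR adjusted p = 0.0502), a setting chosen after seeing the data. For Il18bp the levels were near 1 to 2 CPM, at 1.28, 1.59 and 2.27 CPM in WT and 0.844, 1.41 and 2.43 CPM in AhR-KO libraries, and the log2 fold change was −0.12 (SE 0.26, edgeR adjusted p = 1).

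**Figure D2:**
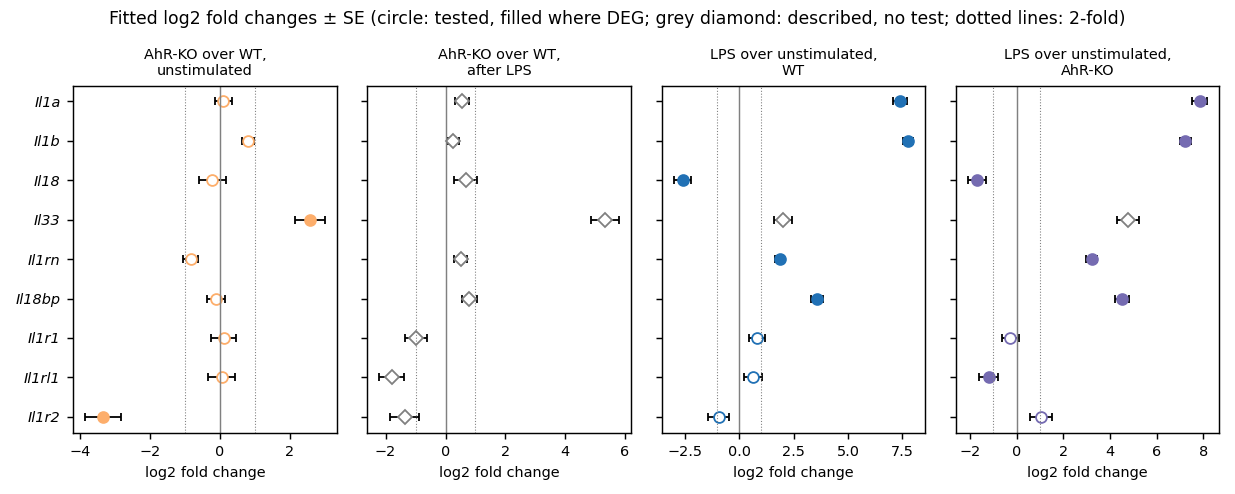
Fitted log2 fold change ± SE of each of the 9 genes in the 4 comparisons, with n = 6 libraries per group; circles are tested values, filled where the gene was a DEG, grey diamonds are values given without a test, and dotted lines mark 2-fold. Without LPS, Il33 (2.58) and Il1r2 (−3.34) lie beyond the dotted lines, and with LPS Il1a and Il1b rise by over 7 on the log2 scale in both genotypes.

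The decoy receptor Il1r2 had the largest fall of the 9 members without LPS. It had 38.3, 68.2 and 95.8 CPM in WT and 5.26, 6.43 and 9.15 CPM in AhR-KO libraries. Every AhR-KO library lay below every WT library. The means were 69.1 ± 26.2 and 6.81 ± 1.5 CPM (SD, n = 6 each), a log2 fold change of −3.34 (SE 0.52, edgeR adjusted p = 0.00012), and the run differences on the log2(CPM + 0.5) scale were −4.02, −2.52 and −3.01. After LPS, Il1r2 had 31.1, 36.8 and 41.7 CPM in WT and 1.92, 7.89 and 34.6 CPM in AhR-KO libraries. The AhR-KO libraries after LPS split by run, since libraries 31 and 32 of the middle run were at 28.9 and 34.6 CPM, next to the WT level, and the other 4 were at 1.92 to 8.22 CPM. The fitted log2 difference was −1.37 (SE 0.48), with run differences of −3.58, −0.19 and −2.20. It was −1.64 with the run as a factor of the fit and −2.07 with limma-voom, and it ranged over −1.88 to −1.14 with 1 library left out.

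Il1r2 is a neutrophil marker as well, and neutrophil markers moved with the genotype. The summed level of 8 such markers ranged over 1501 to 11960 CPM in unstimulated WT and 225 to 745 CPM in unstimulated AhR-KO libraries, and 6 of the 7 markers tested were called lower, beside 4.48% of all genes tested in either direction. After LPS the ranges were 654 to 8045 CPM and 130 to 973 CPM, with 4 of the 7 called lower, beside 8.36%. S100a8, a calcium-binding protein abundant in neutrophils, had a log2 fold change of −3.02 (SE 0.73, edgeR adjusted p = 0.011) without LPS. Most dendritic cell markers tested moved with the genotype too. The summed level of 6 such markers ranged over 34.3 to 108 CPM in unstimulated WT and 2.96 to 9.40 CPM in unstimulated AhR-KO libraries. After LPS it ranged over 562 to 2441 CPM and 99.1 to 892 CPM. That sum was mostly Ccr7, with a mean of 1358 CPM in WT, beside 18.6 CPM for Flt3. In each state 4 of the 5 markers tested were called lower, beside 4.48% of all genes tested without LPS and 8.36% after LPS. Flt3, Cd207 and Cd209a had at most 3, 9 and 23 counts in unstimulated AhR-KO libraries. They passed the filter on low counts through other groups, so these counts are descriptions. Zbtb46 had means of 3.42 and 3.44 CPM in unstimulated WT and AhR-KO cells. Ccr7, a chemokine receptor of migrating dendritic cells, had a log2 fold change of −4.65 (SE 0.71, edgeR adjusted p = 0.0001) without LPS and −2.09 (SE 0.63, edgeR adjusted p = 0.029) after LPS. The part of neutrophil or dendritic cell RNA in the Il1r2 difference was not tested.

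Neither signalling receptor was called without LPS. Il1r1, the receptor of IL-1α and IL-1β, had 2.59, 3.67 and 4.11 CPM in WT and 2.75, 3.36 and 5.56 CPM in AhR-KO libraries. Its log2 fold change was 0.10 (SE 0.36, edgeR adjusted p = 1). Il1rl1, which encodes ST2, had 1.11, 3.08 and 4.62 CPM in WT and 2.10, 2.96 and 4.03 CPM in AhR-KO libraries. The log2 fold change was 0.04 (SE 0.40, edgeR adjusted p = 1), with 49 to 329 counts per library. For both genes the sign turned under some alternatives. Gene counts do not separate the membrane form of ST2 from its soluble form, nor the secreted from the intracellular form of IL-1Ra.

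After LPS, when 8.36% of all genes tested passed both thresholds between genotypes, the members are described by their values alone. Il1rl1 had 2.55, 3.78 and 8.44 CPM in WT and 0.525, 1.10 and 2.92 CPM in AhR-KO libraries. In AhR-KO cells 5 of 6 libraries lay below every WT library, and library 39, at 2.92 CPM, did not. The fitted log2 difference was −1.80 (SE 0.41), and it was −2.73, −1.15 and −0.55 in the 3 runs on the log2(CPM + 0.5) scale. Il33 and the gene of its receptor thus stood in opposite directions in AhR-KO cells after LPS.

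Il1rl1 also marks mast cells and basophils, and edgeR called most of the tested markers of these cells lower in AhR-KO cells in both states. The summed level of 11 such markers ranged over 11.7 to 29.95 CPM in unstimulated WT and 2.95 to 5.53 CPM in unstimulated AhR-KO libraries, with 6 of the 9 markers tested called lower, beside 4.48% of all genes tested in either direction. After LPS the ranges were 26.2 to 62.1 CPM and 6.04 to 15.3 CPM, with 7 of the 9 called lower, beside 8.36%. DESeq2 called 6 and limma-voom 4 of the 9 without LPS, and they called 7 and 8 after LPS. Cpa3, a mast cell protease, had means of 9.51 and 2.11 CPM in WT and AhR-KO cells after LPS. Tpsb2, a mast cell tryptase, was not called and had means of 0.253 and 0.243 CPM without LPS and 0.706 and 0.805 CPM after LPS. The part of these cells in the Il1rl1 level was not tested.

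The remaining members after LPS are described by their fitted log2 differences. Il18bp was 0.80 higher (SE 0.25), with 10.9, 22.6 and 25.8 CPM in WT and 25.9, 30.8 and 54.7 CPM in AhR-KO libraries. These ranges came close to touching but did not overlap. The differences of Il18 (0.67, SE 0.39), Il1a (0.56, SE 0.24), Il1rn (0.51, SE 0.21) and Il1b (0.26, SE 0.18) were all in the higher direction. Their libraries overlapped over the whole groups, and the difference was positive in each of the 3 runs for all 4 genes. Il1r1 had a difference of −0.997 (SE 0.36), also with overlap, and the WT group held library 29 at 14.4 CPM, where the other WT libraries after LPS lay below it. Without library 29 the difference was −0.56.

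LPS changed most of the other 8 members in both genotypes. In WT cells 5 of 8 were called, with Il1a, Il1b, Il1rn and Il18bp higher and Il18 lower, beside 24.9% of all genes tested. In AhR-KO cells 6 of 8 were called, the same 5 in the same directions and Il1rl1 lower, beside 30.8% of all genes tested. No library is shared between these 2 comparisons.

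Il1a and Il1b rose most. Il1a went from a mean of 61.0 to 10263 CPM in WT, a 168-fold rise (log2 fold change 7.39, SE 0.32, edgeR adjusted p = 3.8e-14). In AhR-KO cells it went from 65.2 to 15084 CPM, a 231-fold rise (log2 fold change 7.85, SE 0.32, edgeR adjusted p = 8.7e-15). After LPS the libraries spanned 6034 to 17171 CPM in WT and 10259 to 22914 CPM in AhR-KO cells. The ranges overlapped over all libraries, whose level differed between runs. Within each run both AhR-KO libraries lay above both WT libraries, with run differences of 0.63, 0.71 and 0.44 on the log2(CPM + 0.5) scale.

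Il1b rose 216-fold in WT, from a mean of 54.0 to 11687 CPM (log2 fold change 7.76, SE 0.24, edgeR adjusted p = 2.4e-16). In AhR-KO cells it rose 149-fold, from 93.8 to 14002 CPM (log2 fold change 7.22, SE 0.23, edgeR adjusted p = 2.8e-16). The AhR-KO cells started from the higher level without LPS. Library values after LPS were 8655 to 18882 CPM in WT and 10834 to 19085 CPM in AhR-KO cells.

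Both antagonist genes rose with LPS. Il1rn rose by 1.86 (SE 0.22) on the log2 scale in WT (edgeR adjusted p = 2.7e-07) and by 3.21 (SE 0.23) in AhR-KO cells (edgeR adjusted p = 5.2e-11). Its levels after LPS were 2468, 3024 and 5417 CPM in WT and 3930, 4632 and 6814 CPM in AhR-KO libraries. The AhR-KO group thus went from the lower Il1rn level without LPS to a level that overlapped the upper WT values, with run differences of 0.46, 0.74 and 0.39. Il18bp rose by 3.59 (SE 0.28) in WT (edgeR adjusted p = 5e-10) and by 4.51 (SE 0.29) in AhR-KO cells (edgeR adjusted p = 1.1e-11). Every library with LPS lay above every unstimulated library for both genes and both genotypes.

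Il18 was the 1 agonist gene that fell. Its levels after LPS were 2.86, 6.24 and 15.1 CPM in WT and 7.36, 10.7 and 18.5 CPM in AhR-KO libraries. No library with LPS reached an unstimulated library of its genotype. The log2 fold changes were −2.60 (SE 0.41, edgeR adjusted p = 1.8e-05) in WT and −1.71 (SE 0.40, edgeR adjusted p = 0.0011) in AhR-KO cells, and without library 33 and library 19 they were −2.12 (edgeR adjusted p = 1.4e-05) and −1.40 (edgeR adjusted p = 0.00082).

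The receptors responded less. Il1rl1 fell with LPS in AhR-KO cells (log2 fold change −1.20, SE 0.40, edgeR adjusted p = 0.018) and had a log2 fold change of 0.64 (SE 0.40, edgeR adjusted p = 0.22) in WT. For Il1r1 the values were 0.83 (SE 0.36, edgeR adjusted p = 0.076) in WT and −0.27 (SE 0.36, edgeR adjusted p = 0.58) in AhR-KO cells. The WT value rested in part on library 29, since it was 0.39 without it (edgeR adjusted p = 0.37), and it passed both thresholds without library 38 (1.01, edgeR adjusted p = 0.028). Il1r2 had a log2 fold change of −0.94 (SE 0.48, edgeR adjusted p = 0.13) in WT and 1.04 (SE 0.48, edgeR adjusted p = 0.084) in AhR-KO cells. The AhR-KO value was 0.54 without library 32 (edgeR adjusted p = 0.36) and 1.27 or 1.26 without library 23 or 24 (edgeR adjusted p = 0.017 and 0.027).

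As a description, the log2 fold change with LPS in AhR-KO cells minus that in WT cells was 2.75 for Il33, 1.35 for Il1rn, 0.92 for Il18bp and 0.46 for Il1a, which were positive in both genotypes. For Il1b, also positive in both, it was −0.54. For Il18, whose fitted fall was smaller in AhR-KO cells, it was 0.90. In run 1 the Il18 fall was not smaller, at −2.55 in AhR-KO and −2.43 in WT cells on the log2(CPM + 0.5) scale. The fitted values of the receptors had opposite signs in the 2 genotypes, and the difference was 1.98 for Il1r2, −1.84 for Il1rl1 and −1.10 for Il1r1. These differences contain the contrast that chose the genes and were not tested.

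The balance of agonist and antagonist transcripts within a library was taken as the ratio of CPM per kb of merged exons. Merged exons join all transcript forms of a gene, with 5535 bases for Il1rn and 1907 for Il1b. The libraries also differed in their slope of log2 CPM on log2 gene length, from 0.0952 to 0.585. A ratio near 1 therefore cannot say which transcript exceeded the other. The ratio of Il1b to Il1rn was 0.110, 0.184 and 0.215 in unstimulated WT and 0.460, 0.504 and 0.611 in unstimulated AhR-KO libraries. All 12 unstimulated libraries therefore held more antagonist than Il1b transcript, and the genotypes did not overlap. After LPS the ratio was 8.35, 10.0 and 10.7 in WT and 6.92, 8.31 and 10.3 in AhR-KO libraries, so the balance turned towards the agonist in all 12 libraries and the genotypes overlapped.

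Il1a to Il1rn followed the same course. Its ratio was 0.133, 0.197 and 0.225 in WT and 0.263, 0.360 and 0.385 in AhR-KO libraries without LPS, with no overlap. After LPS it was 6.69, 8.16 and 9.75 in WT and 5.70, 9.11 and 9.85 in AhR-KO libraries. The genotypes overlapped after LPS.

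For Il18 to Il18bp the balance went the other way. The ratio was 36.7, 57.7 and 196 in WT and 33.3, 86.1 and 145 in AhR-KO libraries without LPS. After LPS it was 0.376, 0.780 and 3.16 in WT and 0.592, 0.838 and 2.09 in AhR-KO libraries. The agonist exceeded its antagonist in every unstimulated library, and medians after LPS lay below 1 in both genotypes, with overlap between them in both states.

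The ratio of the receptor Il1r1 to the decoy Il1r2 was 0.0125, 0.0145 and 0.0252 in WT and 0.103, 0.167 and 0.259 in AhR-KO libraries without LPS. The decoy transcript exceeded the receptor transcript in all 24 libraries, and by less in unstimulated AhR-KO cells than in any unstimulated WT library. After LPS the ratio was 0.0202, 0.0431 and 0.104 in WT and 0.0410, 0.112 and 0.272 in AhR-KO libraries, and the genotypes overlapped. No ratio was tested, since a score over chosen genes gets no p.

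**Figure D3:**
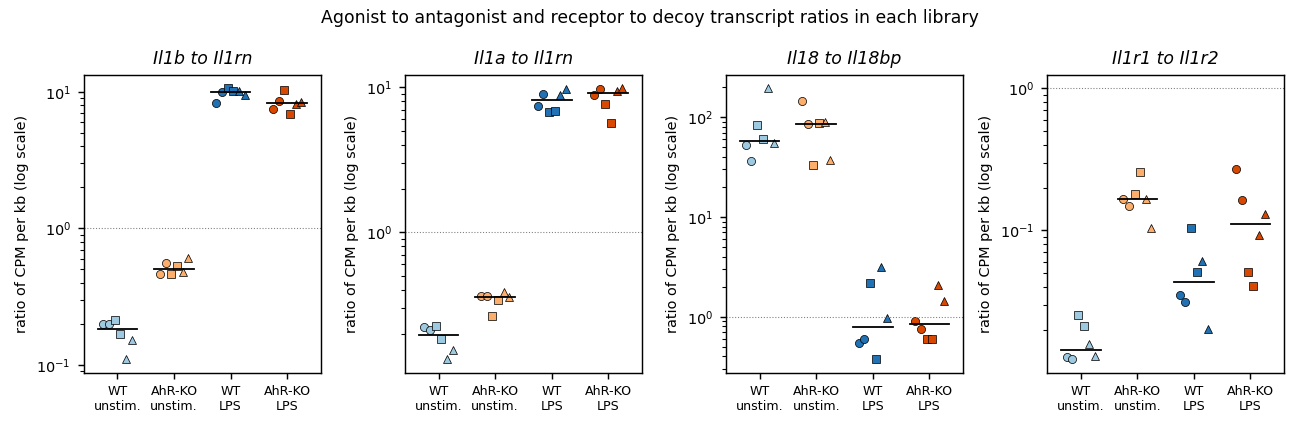
Ratio of CPM per kb between an agonist and its antagonist, or a receptor and its decoy, in each of the 24 libraries on a log scale; points are libraries, shapes give the run, bars are group medians and the dotted line marks equal levels. Without LPS the genotypes separate for Il1b to Il1rn, Il1a to Il1rn and Il1r1 to Il1r2, and after LPS they overlap in all 4 panels.

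Per kb, the order of the members changed more with LPS than with genotype. In unstimulated WT cells Il1rn led with 172 ± 63.4 CPM per kb (SD, n = 6), above every other member in its library range. Il18, Il1r2, Il1a and Il1b followed at 42.5, 36.2, 30.9 and 28.3 CPM per kb, and each overlapped the next. Il1r1, Il18bp, Il1rl1 and Il33 formed the lowest group at 0.556, 0.550, 0.434 and 0.348 CPM per kb, again with overlap between neighbours.

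In unstimulated AhR-KO cells Il1rn led with 95.9 ± 10.6 CPM per kb, followed by Il1b, Il18 and Il1a at 49.2, 36.3 and 33.03 CPM per kb, each overlapping the next. Il1r2 had dropped to 3.57 CPM per kb, next to Il33 at 2.07, and the 2 overlapped. Il1r1, Il18bp and Il1rl1 stayed between 0.448 and 0.598 CPM per kb, below every Il33 value.

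After LPS, Il1b and Il1a led in both genotypes and overlapped each other, at 6128 and 5199 CPM per kb in WT and 7342 and 7641 in AhR-KO cells. Il1rn came next with 626 and 890 CPM per kb. The fourth place was held by Il1r2 in WT, at 18.9 CPM per kb, and by Il33 in AhR-KO cells, at 56.1 CPM per kb, and neither overlapped its neighbours. Il33 was seventh in WT after LPS, at 1.40 CPM per kb. Il18 and Il18bp overlapped each other at 6.997 and 6.64 CPM per kb in WT and 11.1 and 11.5 in AhR-KO cells, and Il1rl1 was last in both, at 0.677 and 0.195 CPM per kb.

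**Figure D4:**
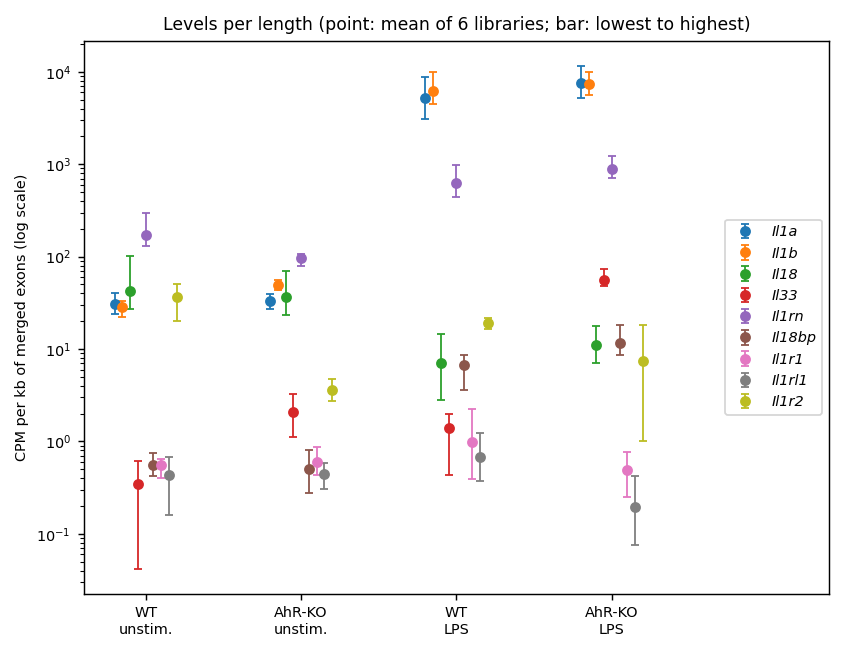
Level of the 9 genes per kb of merged exons in each group on a log scale; points are means of 6 libraries and bars run from the lowest to the highest library. Il33 moves from the lowest place in unstimulated WT cells (0.348) to the fourth place in AhR-KO cells after LPS (56.1), and Il1a and Il1b lead after LPS.

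The genes whose levels ran most like those of a member over the 24 libraries were found by Pearson's coefficient of log2(CPM + 0.5) among tested genes with a mean of at least 1 CPM. The libraries share group differences, so the coefficient is also given after subtracting group means, and both are descriptions. Il33 was most like Cd226 (0.94), Timp1 (0.93) and Slc26a4 (0.92), and within groups these fell to 0.39, 0.22 and 0.12. Timp1, an inhibitor of matrix metalloproteinases, had group means of 3.45, 27.96, 42.9 and 478 CPM in the order WT, AhR-KO, WT with LPS and AhR-KO with LPS, which is the order of Il33 except that its WT level with LPS was above its AhR-KO level without.

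Il1b was most like Il1a (0.996, within groups 0.84), its neighbour on chromosome 2, then Il12a and Cxcl2, at 0.995 each. Il1a was most like Il12a, Ccrl2 and Cxcl2, at 0.998, 0.997 and 0.997, with 0.84, 0.82 and 0.75 within groups. Il12a, a subunit of IL-12, and the neutrophil chemokine Cxcl2 are genes known to respond to LPS in macrophages. Il1rn was most like Upp1 (0.99, within groups 0.92), Adora2b and Atf4.

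Il18bp was most like H2-Q6, Rnf19b and Apol9b, at 0.99 each and 0.65 to 0.68 within groups. Il18 was most like Tmem71 (0.95), Nars2 and Slc29a1 (0.94 each), and these held within groups at 0.84 to 0.89. Il1r2 was most like Igfbp4 (0.94, within groups 0.85), a binding protein of insulin-like growth factors with group means of 37.3, 3.26, 19.1 and 11.8 CPM, then Gcnt2 and Emp2. For Il1r1 (Frk, Itgb3 and Ganab, at 0.76 each) and Il1rl1 (Crip1, Gm8990 and Acot2, at 0.78, 0.75 and 0.74) the likeness was lower.

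The further genes of the pathway were taken from lists written from general knowledge, with earlier results of these data known, so their counts are descriptions. Of 7 further receptors, 5 passed the filter on low counts, and Il18r1 did so through its WT libraries, so it is given as values without a test. Il18rap was called lower without LPS in AhR-KO cells, beside 4.48% of all genes tested in either direction. After LPS Il18rap and Sigirr were called lower, beside 8.36%. Il18r1 and Il18rap encode the pair that forms the IL-18 receptor. Beside them, 6 of 7 neutrophil markers, 4 of 5 dendritic cell markers and 6 of 9 mast cell and basophil markers tested were called lower without LPS, and their part in these levels was not tested. Il18rap had means of 13.3 and 2.43 CPM in unstimulated WT and AhR-KO cells (log2 fold change −2.45, SE 0.28, edgeR adjusted p = 3.2e-06), and 3.42 and 0.515 CPM after LPS (log2 fold change −2.73, SE 0.29, edgeR adjusted p = 6.8e-07). Il18r1 had means of 3.10 and 0.0940 CPM without LPS and passed the filter on low counts through its WT libraries, with 57 to 332 counts in WT and 0 to 17 in AhR-KO libraries. After LPS it had a mean of 0.380 CPM in WT and no count in the 6 AhR-KO libraries, at least 37.6-fold lower when 3 counts over the group are taken as the limit for a count of 0. Sigirr, an inhibitory receptor of the family, had means of 4.01 and 1.61 CPM in WT and AhR-KO cells after LPS (log2 fold change −1.32, SE 0.29, edgeR adjusted p = 0.0031). The shared co-receptor Il1rap had a log2 fold change of −0.36 (SE 0.14, edgeR adjusted p = 0.19) without LPS, and the IL-36 receptor Il1rl2 one of −0.06 (SE 0.13, edgeR adjusted p = 1).

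Of 5 further cytokine genes, 2 were tested, Il36a and Il36g, which encode IL-36 agonists. Il36a went from means of 0.333 and 0.133 CPM in unstimulated WT and AhR-KO cells to 62.3 and 44.6 CPM after LPS, with 0 to 56 and 0 to 18 counts per library before and at least 1656 and 838 counts after. It passed the filter on low counts through the libraries with LPS, so its rise is given as values without a test. Il36g rose by 2.45 (SE 0.23) in WT (edgeR adjusted p = 9.1e-09) and by 2.34 (SE 0.23) in AhR-KO cells (edgeR adjusted p = 1.1e-08). Without LPS, Il36a was too near 0 to compare the genotypes, and Il36g was not called (log2 fold change 0.43, SE 0.22, edgeR adjusted p = 0.42). Between genotypes after LPS edgeR called 0 of the 2, beside 8.36% of all genes tested. There, 0 had an unadjusted p under 0.05, and DESeq2 and limma-voom called 0 each.

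Processing and release of IL-1β and IL-18 run through the inflammasome, caspases and the pore protein gasdermin D. With LPS, 4 of 9 such genes were called higher in each genotype, Casp1, Casp4, Nlrp3 and Gsdmd, beside 24.9% of all genes tested in WT and 30.8% in AhR-KO cells called in either direction. Casp1, the protease that cuts both precursors, went from 40.6 to 142 CPM in WT (log2 fold change 1.80, SE 0.18, edgeR adjusted p = 2.2e-08) and from 42.0 to 278 CPM in AhR-KO cells (log2 fold change 2.73, SE 0.19, edgeR adjusted p = 2.3e-11). Casp1 and Casp4 were higher in AhR-KO than in WT cells after LPS by 0.97 (SE 0.18, edgeR adjusted p = 0.00039) and 0.91 (SE 0.18, edgeR adjusted p = 0.0011) on the log2 scale, both under 2-fold. Between genotypes edgeR called 0 of the 9 in either state, a count near the background of 4.48% of all genes tested without LPS and 8.36% after LPS, with 1 and 4 at an unadjusted p under 0.05 without and with LPS, and DESeq2 called 0 and 1.

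In the signalling chain below the receptors, edgeR called 0 of 11 genes between genotypes in either state, near the background of 4.48% and 8.36% of all genes tested, 0 had an unadjusted p under 0.05, and DESeq2 and limma-voom called 0 each. Their log2 fold changes lay between −0.14 and 0.28 without LPS and between −0.30 and 0.16 after LPS. With LPS, 2 of the 11 were called in WT, beside 24.9% of all genes tested, and 1 in AhR-KO cells, beside 30.8%. Irak3, an inhibitory kinase of the chain, rose by 2.52 (SE 0.49) on the log2 scale in WT (edgeR adjusted p = 0.00025) and by 2.52 (SE 0.49) in AhR-KO cells (edgeR adjusted p = 0.00019). Traf6, the ubiquitin ligase downstream of the IRAK kinases, rose by 1.07 (SE 0.22) in WT (edgeR adjusted p = 0.00043) and by 0.86 (SE 0.22) in AhR-KO cells (edgeR adjusted p = 0.0026), under 2-fold.

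**Figure D5:**
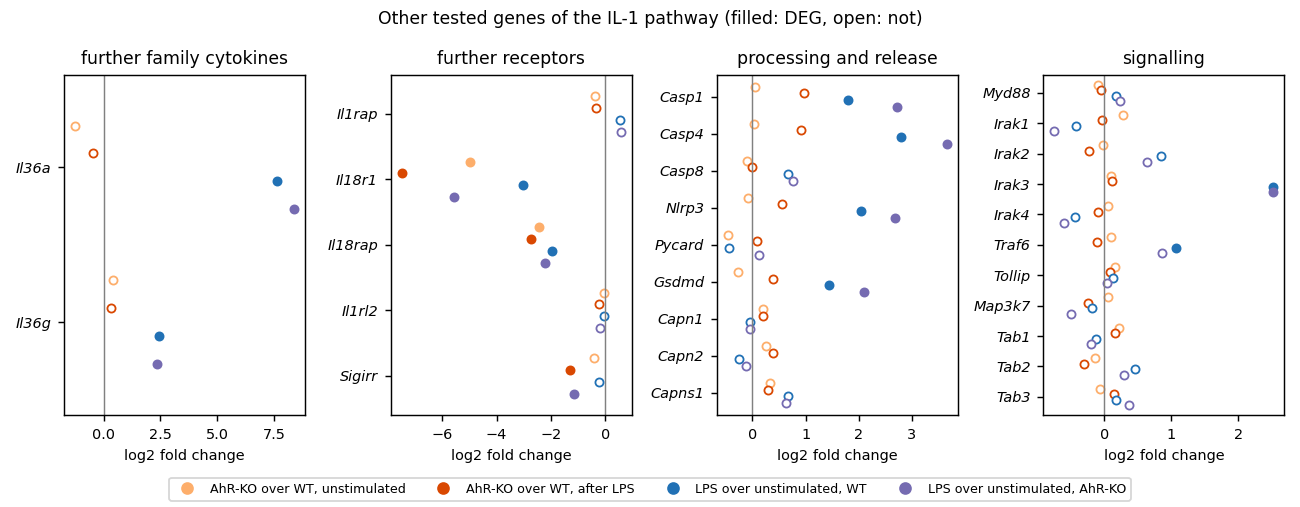
Fitted log2 fold changes of the tested genes from 4 further lists of the IL-1 pathway in the 4 comparisons; filled points are DEGs and open points are not. Il18r1 and Il18rap lie left of 0 in all comparisons, the signalling genes lie near 0 between genotypes, and the 2 Il18r1 points that rest on AhR-KO cells after LPS, where it had no count, depend on the prior count of the fit. Il18r1 passed the filter on low counts through its WT libraries and Il36a through the libraries with LPS, so their points are descriptions.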

How the data were processed

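Poly(A)-enriched, strand-specific RNA libraries of 24 BMDM cultures were sequenced in pairs. Per the study's methods, reads were aligned to mm10 with GSNAP and uniquely aligned fragments were counted per gene with featureCounts 2.0.1 on the Ensembl 98 annotation, and the authors deposited raw counts with a merged exon length for each gene. The file's header gives reverse-stranded counting, and fragments that overlapped several genes were left out. This affects members with an overlapping gene on the same strand. The 92 spike-in sequences, with 1 count in all, were left out. Symbols were taken from GENCODE M21, which named 55240 of 55421 genes, and promoters from RefSeq (GRCm38.p6).

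Counts were filtered with filterByExpr, which left 16593 genes, scaled by TMM and fitted in edgeR 4.0.16 (R 4.3.3) with a robust quasi-likelihood model holding all 24 libraries and 1 coefficient per group. F-tests were adjusted by Benjamini-Hochberg. As in the study, DEGs were genes with adjusted p ≤ 0.05 whose log2 fold change was 1 or more in size. The standard error is the log2 fold change divided by the square root of F. The steps were tested on simulated data. Alternatives were another scaling, DESeq2 1.42.0, limma-voom 3.58.1, other filters, fewer libraries, covariates and each library left out in turn. CPM per kb used the merged exon length. Named genes were the 9 members, Ahr, the pathway and marker lists, and the 3 genes most like each member. A gene near 0 in 1 group could pass the filter through another group, so counts over the lists are descriptions. The members and lists were chosen with earlier results of these data known.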

Additional observations from a re-analysis of the deposited data

Results flagged for a closer look

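In 3 of 36 groups of 6 values (9 genes in 4 groups, on the log2(CPM + 0.5) scale), 1 library lay farther from the others than Dixon's criterion allows, and chance gives about 1 in 20. Il18 was highest in unstimulated WT library 33, at 104.752 CPM, and Il1rn was highest in the same library, at 1658.72 CPM. Il33 was lowest among WT libraries with LPS in library 29, at 1.24087 CPM.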

How the results depend on the processing

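Counts of called members stayed within 1.5 times under 11 other settings and with each of 24 libraries left out, except as follows. Between genotypes without LPS the count was 2, and 4 with no minimum fold change. Between genotypes after LPS, the comparison that chose the genes, no count of members is given. The single-gene values below include this comparison as a description only. Leaving out 1 library gave 2 each time without LPS, and, of the 8 members other than Il33, 5 to 6 for LPS in WT and 6 to 7 for LPS in AhR-KO cells. Of the single-gene values, 1234 kept sign and side of the thresholds, 17 passed newly and 9 turned sign, all 9 between genotypes without LPS in genes with no call. Il18 ranged over −0.51 to 0.25 with 1 library left out, Il1r1 over −0.035 to 0.18 and Il1rl1 over −0.12 to 0.21. Il1r1 was −0.0091 with the run as a factor. Il1rl1 was −0.067 with total library size and −0.099 without libraries 19 and 33, a setting added after seeing the data. Il1r2 passed for LPS in WT with total library size (−1.29, edgeR adjusted p = 0.034). The causes were not tested.

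Total library size moved the median log2 fold change of all genes to −0.09 (AhR-KO over WT without LPS), −0.26 (AhR-KO over WT after LPS), −0.31 (LPS in WT) and −0.52 (LPS in AhR-KO), from −0.01, −0.05, 0.03 and −0.03. With it, 236 of 1587 DEGs were higher in AhR-KO cells after LPS, in place of 360 of 1387. For LPS the higher DEGs were 1622 of 4785 in WT and 1730 of 6128 in AhR-KO cells, in place of 2186 of 4137 and 2504 of 5105. With no minimum fold change, 1015 genes passed between genotypes without LPS, 2096 after LPS, 6305 for LPS in WT and 7402 for LPS in AhR-KO cells, and 2857, 5751, 10197 and 10830 did once the length slope entered the model. Il33 in unstimulated WT cells rested on 9 to 118 counts and Il1rl1 in AhR-KO cells with LPS on 26 to 113, which limits their precision. Library numbers are not shared between groups, so they pair no samples, and the run was fitted as a factor instead. It gave 933 DEGs between genotypes without LPS and 1663 after LPS, in place of 744 and 1387.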

Other observations

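In each of the 4 groups, the library with the highest Il18 level was also the library with the highest Il1rn level and the highest summed level of 8 neutrophil markers: library 33 in unstimulated WT, 19 in unstimulated AhR-KO, 37 in WT with LPS and 39 in AhR-KO with LPS. The same libraries had the lowest slope of log2 CPM on log2 gene length in their groups, at 0.114, 0.0952, 0.199 and 0.181. Their Il18 levels were 105, 71.6, 15.1 and 18.5 CPM, against group medians of 32.6, 31.96, 6.24 and 10.7 CPM. Their Il1rn levels were 1659, 591, 5417 and 6814 CPM, against medians of 828.6, 538, 3024 and 4632 CPM. The neutrophil sums were 11960, 745, 8045 and 973 CPM, against medians of 2351, 376, 1228 and 204 CPM. This pattern was noticed in the data, and its part in the levels was not tested.

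Of 9 alveolar macrophage markers, 2 were called higher in unstimulated AhR-KO cells, beside 4.48% of all genes tested in either direction. Siglecf, a surface lectin, had means of 62.0 and 184 CPM (log2 fold change 1.57, SE 0.33, edgeR adjusted p = 0.0028), and Ear2, a ribonuclease, had means of 686 and 1918 CPM (log2 fold change 1.48, SE 0.27, edgeR adjusted p = 0.00064). After LPS, 3 of the 9 were called, beside 8.36% of all genes tested, and not in 1 direction. Ear2 (log2 fold change 1.98, SE 0.27, edgeR adjusted p = 1.6e-05) and Car4, a carbonic anhydrase (1.004, SE 0.16, edgeR adjusted p = 9.2e-05), were higher in AhR-KO cells. Fabp5, a fatty acid-binding protein, was lower (−2.29, SE 0.30, edgeR adjusted p = 1e-05). Siglecf had means of 7.43 and 12.2 CPM after LPS (0.71, SE 0.32, edgeR adjusted p = 0.18).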
